A study of Mus musculus with 4 samples.

Results

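The cells described here are 927 PB3 cells of the 2 multiome libraries in which more than 1 lineage barcode was called, among 17697 cells of those libraries and 43782 cells of all 4 libraries with chromatin accessibility data. They were taken as the cells that the authors' cell table calls Doublet (56 eribulin and 669 untreated cells) or Multiplet (6 eribulin and 196 untreated cells) in the multiome libraries, and are called multi-barcode cells here. PB3 is a mouse mammary tumor cell line. The eribulin multiome library came from cells given 500 nM eribulin, a drug that blocks microtubule growth, for 72 h and then left to recover for 48 h, a cycle that was run 3 more times to give 4 rounds. The untreated multiome library came from the same line without drug, and lineage barcodes were called in cells of both libraries. Each condition was 1 library, so the spread between cultures is unknown, the libraries are compared without a test, and cells of 1 library were not treated as replicates. The eribulin library held 62 multi-barcode cells among 8114, with 49446970 Tn5 cut sites in peaks in all, and the untreated library held 865 among 9583, with 61629245 cut sites. How the barcode classes were set, and what separates Doublet from Multiplet, were not given in the sources used here, and the table does not name the barcodes of these cells.

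In barcode lineage tracing, a lentivirus usually writes a short DNA tag into the genome of an infected cell, and all descendants inherit it. A droplet that yields more than 1 tag can hold more than 1 nucleus, or a single nucleus whose ancestor was infected more than once, and free tags from other cells can add to either. Such cells are usually set aside when lineages are counted. In ATAC-seq the transposase Tn5 cuts open DNA, so the number of cut sites in peaks gives the depth of a cell, and a droplet with more nuclei offers more DNA to cut. No value per gene or peak was used here, and the cells are described by their depth, fragment lengths, clusters and map positions.

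The barcodes are shown because calling more than 1 in a cell rests on telling them apart. Each had 48 bases, a short part of 14 and a long part of 30 bases joined by a linker at bases 15 to 18, printed in capitals and counted from the 5′ end. The most frequent barcodes among cells with a single called barcode (single-barcode cells) were 76-49517 and 6-93034 in the eribulin library, named by the numbers of their short and long parts, and 22-14328 and 50-60095 in the untreated one.
76-49517: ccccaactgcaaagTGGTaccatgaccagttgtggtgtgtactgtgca
6-93034: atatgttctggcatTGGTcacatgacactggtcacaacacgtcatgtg
22-14328: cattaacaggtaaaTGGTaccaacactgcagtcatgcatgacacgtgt
50-60095: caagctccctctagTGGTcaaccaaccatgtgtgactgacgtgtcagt
Barcodes 76-49517 and 6-93034 marked 438 and 403 of the 1391 eribulin single-barcode cells (31.5% and 29.0%), whereas 22-14328 and 50-60095 marked 182 and 112 of the 4772 untreated ones (3.81% and 2.35%). The eribulin barcodes differed from each other at 35 bases and the untreated ones at 36. Over the 486 barcodes seen in single-barcode cells of the multiome libraries, all of them in the authors' list, any pair differed at 9 bases or more, with a median of 33. Of the 117855 pairs, 2277 had the same short part and 2 the same long part.

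Multi-barcode cells were rarer after eribulin, whether counted over all cells or over cells with a called barcode. They were 0.764% of the eribulin cells (exact 95% Clopper-Pearson interval 0.586 to 0.979) and 9.03% of the untreated cells (8.46 to 9.62), an 11.8-fold higher share in the untreated library. All intervals here reflect counting error alone. Fewer eribulin cells had any called barcode, 17.9% against 58.8% of the untreated cells. Among cells with a called barcode, 4.27% (3.29 to 5.44; 62 of 1453) carried more than 1 in the eribulin library and 15.3% (14.4 to 16.3; 865 of 5637) in the untreated library, so the untreated share was 3.60-fold higher on this basis. Multiplets were 6 of the 62 eribulin multi-barcode cells (9.68%, 3.63 to 19.88) and 196 of the 865 untreated ones (22.7%, 19.91 to 25.6). The intervals of that last share lie just apart for the 2 libraries.

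The libraries also differed in how often different cells would carry different barcodes. Of pairs of single-barcode cells, 21.5% shared their barcode in the eribulin library, which had 27 distinct barcodes, and 0.824% in the untreated library, which had 484. A droplet with 2 nuclei of the same lineage shows 1 barcode, and a nucleus without a called barcode adds none. The part of lineage diversity and of barcode detection in the lower eribulin share was not tested.

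Multi-barcode cells were deeper than single-barcode cells in both libraries. The ratio was larger after eribulin by medians and by means, but not every measure of depth kept that order. In the eribulin library they had a median of 12692 cut sites (quartiles 4688 and 19450; range 1010 to 47917; n = 62), against 5957 (3158 and 11384; n = 1391) in single-barcode cells, a ratio of 2.13. In the untreated library they had a median of 6837 (4316 and 11915; range 1047 to 55028; n = 865), against 5427 (3622 and 8437; n = 4772), a ratio of 1.26. With means the ratios were 1.58 in the eribulin and 1.37 in the untreated library, so the gap between the libraries was smaller than with medians. The ranges of the classes overlapped almost fully: a multi-barcode cell was the deeper one in 65.2% of all pairs with a single-barcode cell in the eribulin library and in 60.0% in the untreated library. Cells called negative were shallowest, with medians of 3914 cut sites in the eribulin and 4741 in the untreated library.

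**Figure D1:**
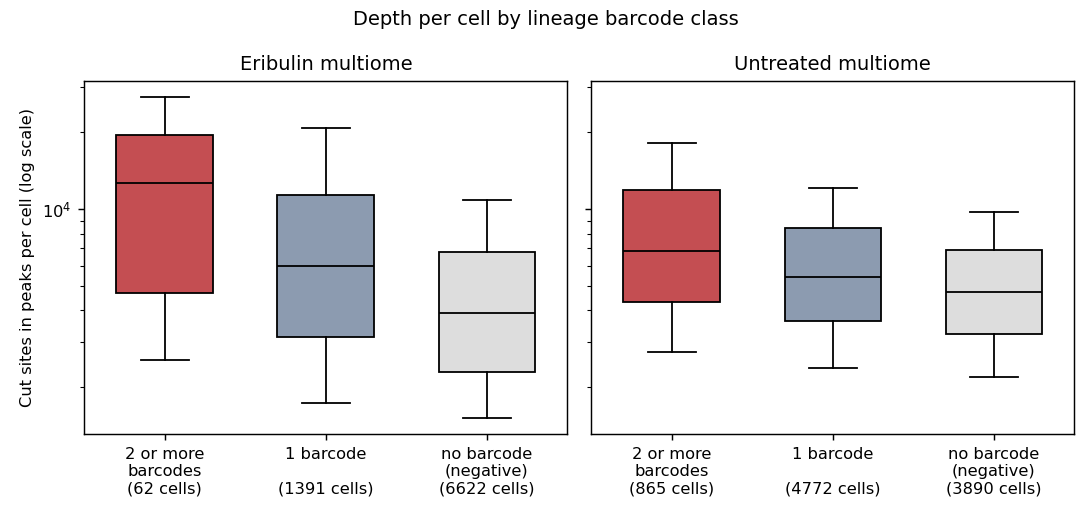
Cut sites in peaks per cell on a log axis for cells with 2 or more barcodes, 1 barcode and no barcode, in the eribulin (left) and untreated (right) multiome libraries. Boxes give the quartiles with the median as a line and whiskers the 10th and 90th percentiles over cells; the medians are 12692, 5957 and 3914 in the eribulin library and 6837, 5427 and 4741 in the untreated one.

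By the median, cells called Multiplet were deeper than cells called Doublet in both libraries. Untreated cells called Multiplet had a median of 8514 cut sites (5528 and 14987; n = 196), those called Doublet 6230 (4057 and 10487; n = 669) and single-barcode cells 5427, so that the ratio to single-barcode cells was 1.57 for Multiplets and 1.15 for Doublets. Eribulin cells called Doublet had a median of 12541 (4174 and 19490; n = 56), a ratio of 2.11. The 6 eribulin Multiplets had 5016, 9113, 13649, 16533, 18433 and 32889 cut sites, with a median of 15091. The shallowest of them lay below the median of the single-barcode cells, and 4 of the 6 lay above 2 times that median.

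The eribulin multi-barcode cells spread over both ends of the depth range. Of the 62, 33 (53.2%, 40.1 to 66.0) had more than 2 times the median cut sites of single-barcode cells, a level reached by 23.5% (21.3 to 25.8) of the single-barcode cells themselves. A further 19 (30.6%, 19.6 to 43.7) lay below that median. Fewer of the untreated multi-barcode cells passed 2 times the median of their own library's single-barcode cells. Fewer of those single-barcode cells passed it as well. Of the 865, 239 (27.6%, 24.7 to 30.7) exceeded 2 times the median of single-barcode cells, against 13.4% (12.5 to 14.4) of the single-barcode cells, and 321 (37.1%, 33.9 to 40.4) lay below it. Among untreated Doublets 41.0% (37.2 to 44.8) lay below it, and among untreated Multiplets 24.0% (18.2 to 30.6). Above the 90th percentile of the single-barcode cells of each library the order of the libraries was turned round, with overlapping intervals. There lay 12 of the 62 eribulin multi-barcode cells (19.4%, 10.4 to 31.4) and 213 of the 865 untreated ones (24.6%, 21.8 to 27.6).

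The share of multi-barcode cells among barcoded cells was nearly level in shallow and middling cells and higher in the deepest ones. Untreated cells had a share between 11.01% and 15.5% in each of the 6 bins up to 12000 cut sites, then 24.7% (20.4 to 29.5) from 12000 to 16000, 34.9% (29.3 to 40.8) from 16000 to 24000 and 50.0% (36.1 to 63.9; 27 of 54 cells) above 24000. Eribulin cells had a share between 1.72% and 3.55% up to 12000, then 8.94% (4.55 to 15.4), 7.52% (3.66 to 13.4) and 11.7% (6.17 to 19.5) in the same 3 deepest bins. The eribulin share was the lower one in all 9 bins, by a factor of 2.77 to 8.04, and the intervals of the 2 libraries did not overlap in any of them, although each eribulin bin held only 3 to 12 multi-barcode cells. Cells called negative made up 87.6% of the eribulin and 46.6% of the untreated cells in the shallowest bin, and 34.9% and 9.46% in the deepest, so the calling of any barcode also moved with depth, and its part in these shares was not tested.

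**Figure D2:**
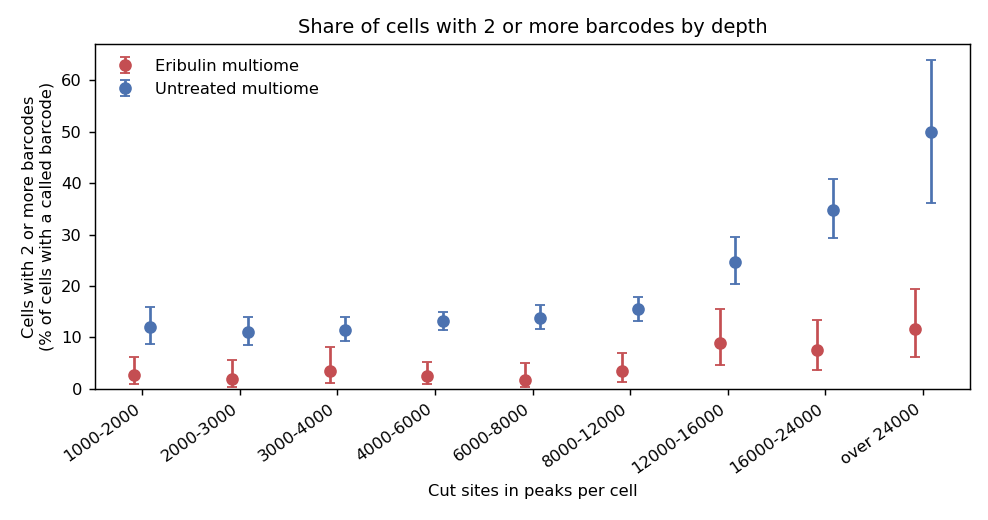
Cells with 2 or more barcodes, in percent of cells with a called barcode, in 9 bins of cut sites per cell in the eribulin (red) and untreated (blue) multiome libraries. Bars are exact 95% binomial intervals; every eribulin point lies below the untreated one, and both libraries have their highest share above 24000 cut sites, 11.7% and 50.0%.

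Peaks detected went with depth. Multi-barcode cells had a median of 10843 peaks (4376 and 15211) against 5407 in single-barcode cells of the eribulin library, a ratio of 2.01, and 6107 (3995 and 10190) against 4962 in the untreated library, a ratio of 1.23. Each multi-barcode cell was then set against the 50 single-barcode cells nearest to it in cut sites. Their median depth lay within 2% of its own for 53 of 62 eribulin cells (85.5%) and 808 of 865 untreated cells (93.4%). Above 24000 cut sites this held for 4 of 12 eribulin cells and for none of 27 untreated cells. Those deep cells were 1.02 (eribulin) and 1.23 (untreated) times as deep as their neighbours in the median, and up to 1.40 and 2.27 times. The ratio of a multi-barcode cell's peaks to the median of its 50 neighbours had a median of 1.01 (quartiles 0.997 and 1.02) in the eribulin library and 1.00 (0.995 and 1.01) in the untreated library. Slightly more peaks than in those neighbours were found in 40 of 62 eribulin cells (64.5%, 51.3 to 76.3) and 490 of 865 untreated cells (56.6%, 53.3 to 60.0). Among untreated Multiplets it was 121 of 196 (61.7%, 54.5 to 68.6). Over the cells matched within 2% these were 32 of 53 eribulin cells (60.4%, 46.0 to 73.5), 434 of 808 untreated cells (53.7%, 50.2 to 57.2) and 95 of 170 untreated Multiplets (55.9%, 48.1 to 63.5), so that the eribulin and Multiplet intervals then included 50%. The median excess was thus 1% or less in both libraries. The number of genes with any activity, against the same neighbours, had a median ratio of 1.00 in either library.

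**Figure D3:**
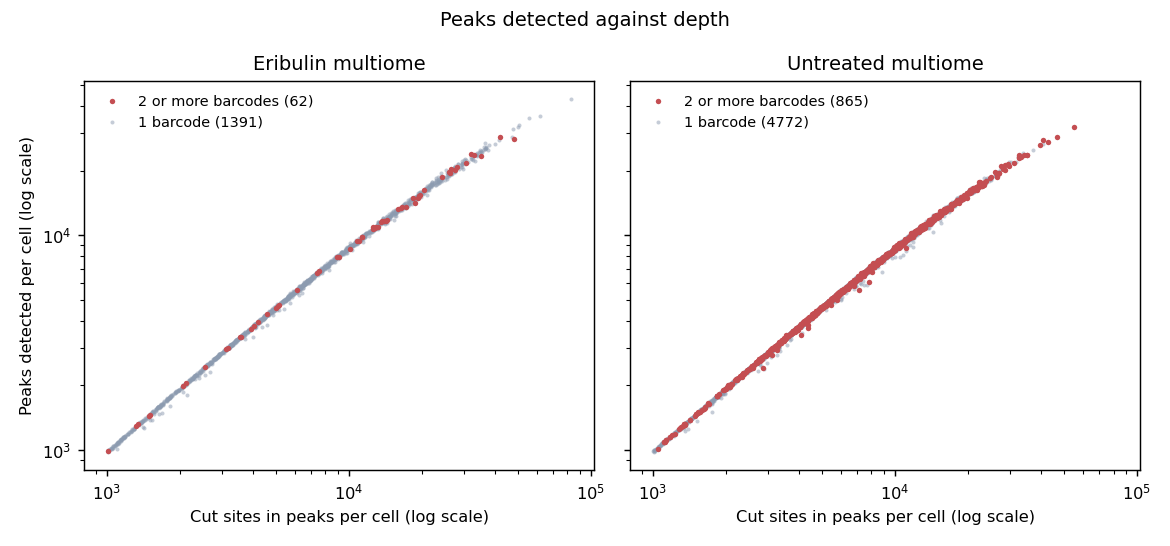
Peaks detected against cut sites in peaks, 1 point per cell on log axes, for cells with 2 or more barcodes (red) and 1 barcode (grey) in the eribulin (left) and untreated (right) multiome libraries. Both classes lie on the same curve in each library, with median peak ratios of 1.01 and 1.00 to the 50 single-barcode cells nearest in depth.

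Fragment lengths hardly separated the classes. The nucleosome signal, which is high where more fragments span a nucleosome and fewer come from free DNA, had a median of 0.662 (quartiles 0.591 and 0.721) in eribulin multi-barcode cells and 0.668 (0.606 and 0.739) in eribulin single-barcode cells. Untreated cells had 0.895 (0.815 and 0.998) against 0.906 (0.814 and 1.01). Against the cells nearest in depth the untreated multi-barcode cells were a little lower, with 385 of 865 (44.5%, 41.2 to 47.9) above the median of their 50 single-barcode neighbours in depth, and 78 of 196 Multiplets (39.8%, 32.9 to 47.0). Over the untreated cells matched within 2% in depth, 366 of 808 (45.3%, 41.8 to 48.8) were above, and 73 of 170 Multiplets (42.9%, 35.4 to 50.7). In the eribulin library 29 of 62 (46.8%, 34.0 to 59.9) were above. The enrichment of cuts at transcription start sites had medians of 4.97 and 5.04 in eribulin multi-barcode and single-barcode cells, and 5.01 in either class of the untreated library.

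Between the libraries, the multi-barcode cells differed as single-barcode cells did in nucleosome signal, and more than those in depth. Their median nucleosome signal was 0.662 after eribulin and 0.895 without drug, and an eribulin multi-barcode cell had the higher signal in 6.60% of all pairs with an untreated one. Their median depth was 12692 cut sites after eribulin and 6837 without drug, a ratio of 1.86, whereas single-barcode cells had medians of 5957 and 5427. An eribulin multi-barcode cell was the deeper one in 62.7% of all pairs with an untreated one. Mean depths were 13979 and 8973 in multi-barcode cells, and 8822 and 6572 in single-barcode cells, so this contrast was smaller with means. All cells together had medians of 4230 and 5217, with the order of the libraries turned round. Each is a difference between 1 library and 1 other and was not tested.

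Multi-barcode cells lay largely in the same chromatin clusters as single-barcode cells, with moderate shifts in both libraries. The largest, 10.2 points in eribulin cluster 12, had overlapping intervals, and intervals were apart only in untreated clusters. The authors' cluster numbers come from all 4 libraries together. The summed smaller share over clusters was 86.4% between multi-barcode and single-barcode cells in the eribulin library and 91.1% in the untreated library. With only 62 eribulin multi-barcode cells, sampling alone also lowers the first value, and its part was not tested. Single-barcode and negative cells overlapped by 80.8% in the eribulin and 91.4% in the untreated library. All 62 eribulin multi-barcode cells lay in clusters 0, 10, 11 and 12. These clusters held 63.0%, 5.97%, 4.74% and 17.2% of the eribulin single-barcode cells. Of the 865 untreated ones, 829 (95.8%) lay in clusters 2, 3, 6, 8, 9 and 14. There the single-barcode shares were 36.1%, 19.3%, 14.7%, 11.1%, 9.60% and 5.18%. Single-barcode cells thus lay mostly in the same clusters, which were named for holding at least 5% of either class.

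In the untreated library the clusters differed in their share of multi-barcode cells. Cluster 2 held 42.2% (38.9 to 45.6) of the multi-barcode cells and 36.1% (34.7 to 37.5) of the single-barcode cells. Cluster 6 held 10.4% (8.45 to 12.6) against 14.7% (13.7 to 15.7), and cluster 14 held 2.08% (1.24 to 3.27) against 5.18% (4.56 to 5.84). In these 3 clusters the intervals of the classes did not overlap. Clusters 3, 8 and 9 had overlapping intervals, with 21.0% against 19.3%, 11.3% against 11.1% and 8.79% against 9.60%. As a share of barcoded cells, multi-barcode cells were 17.5% (15.9 to 19.2) in cluster 2, 16.5% (14.4 to 18.8) in cluster 3, 11.4% (9.26 to 13.8) in cluster 6 and 6.79% (4.08 to 10.5) in cluster 14.

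Among the 6 named untreated clusters, cluster 14 stood out in depth and in lineage. Its 18 multi-barcode cells had a median of 13132 cut sites, against 6676 in its 247 single-barcode cells, a ratio of 1.97. The other 5 had ratios between 1.15 in cluster 3 and 1.37 in cluster 9. No interval was computed for these ratios. Smaller clusters varied too, with 1.52 in cluster 16 (11 multi-barcode cells), 1.12 in cluster 4 (7) and 0.815 in cluster 15 (16). Of the 6 named clusters, cluster 14 was also the one most taken up by 1 lineage, with 56.3% (49.8 to 62.6) of its single-barcode cells from barcode 22-14328. In the other 5 clusters the leading barcode had 4.53% in cluster 2 to 13.4% in cluster 6. Cells of 1 lineage share their history, so the binomial intervals of the cluster shares are too narrow.

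In the eribulin library cluster 0 held 37 of the 62 multi-barcode cells (59.7%, 46.4 to 71.9) and 63.0% (60.4 to 65.5) of the single-barcode cells. Cluster 12 held 17 (27.4%, 16.9 to 40.2) against 17.2% (15.2 to 19.3), cluster 11 held 5 (8.06%) against 4.74% and cluster 10 held 3 (4.84%) against 5.97%, all with overlapping intervals. The multi-barcode cells of clusters 0 and 12 had medians of 12957 and 14375 cut sites, against 5871 and 6981 in the single-barcode cells, ratios of 2.21 and 2.06. Those of cluster 11 had 8917 against 6363. The 3 cells of cluster 10 had a median of 3570 against 5024, the only one of these 4 clusters where they were shallower. Barcode 6-93034 had 83.7% (78.4 to 88.1) of the single-barcode cells of cluster 12, and barcode 76-49517 had 41.9% (38.6 to 45.2) of those of cluster 0.

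Cluster 15 was picked out after its values were seen. It held none of the 62 eribulin multi-barcode cells, although 63 eribulin single-barcode cells lay there; a count of 0 of these 63 allows a share of up to 4.76% by the limit of 3 counts and of up to 5.69% by the exact interval, both above the 4.27% of the whole library, so a lack of such cells was not detectable. Of the untreated cells it held 16 multi-barcode and 59 single-barcode cells, a share of 21.3% (12.7 to 32.3). That interval includes the 15.3% of the whole untreated library. Its untreated multi-barcode cells had a median of 4929 cut sites, below the 6046 of its single-barcode cells, and a nucleosome signal of 1.35 against 1.33, well above the 0.895 of all untreated multi-barcode cells.

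**Figure D4:**
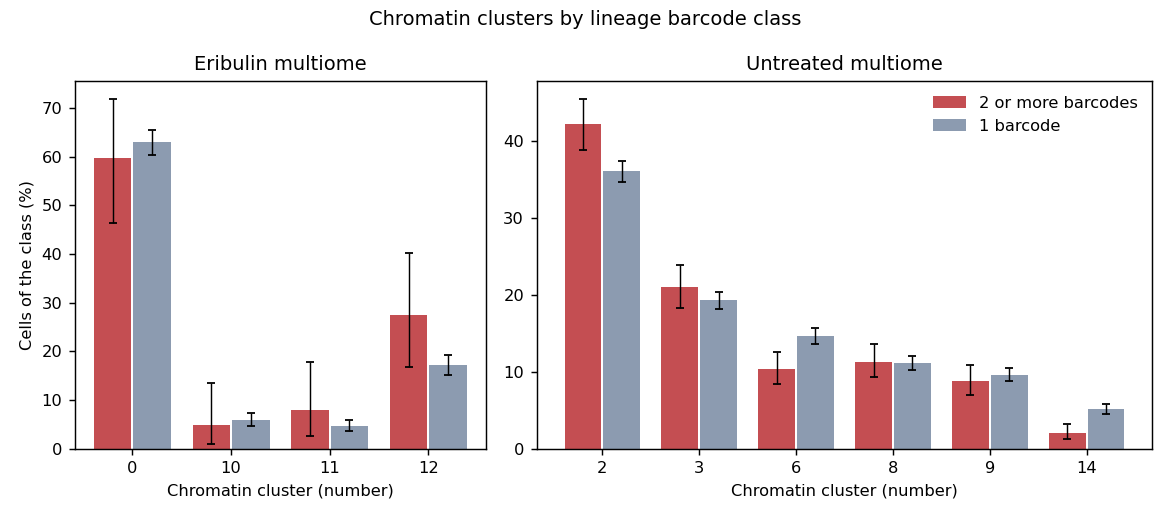
Share of cells in each chromatin cluster with at least 5% of either class, in percent of the class, for cells with 2 or more barcodes (red) and 1 barcode (grey) in the eribulin (left) and untreated (right) multiome libraries, whose vertical axes differ in scale. Bars are exact 95% binomial intervals; they are apart for untreated clusters 2, 6 and 14 and overlap elsewhere.

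On the deposited UMAP, multi-barcode and single-barcode cells had much the same share of cells lying among other clusters, with overlapping intervals. For each cell the 30 nearest single-barcode cells of its library were found, and the share of them in the cell's own cluster was taken. That share was under 50% for 14 of 62 eribulin multi-barcode cells (22.6%, 12.9 to 34.97) and 20.3% (18.3 to 22.6) of eribulin single-barcode cells. It was under 50% in the untreated library for 47.1% (43.7 to 50.4) of multi-barcode cells and 51.6% (50.2 to 53.1) of single-barcode cells. Among untreated cells at or above the median depth of single-barcode cells the shares were 43.4% (39.2 to 47.7) and 42.5% (40.5 to 44.5), whereas untreated Multiplets of that depth had 47.0% (38.8 to 55.3). Per the series' design text the map was made from the same components as the clusters, so it is no independent evidence.

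**Figure D5:**
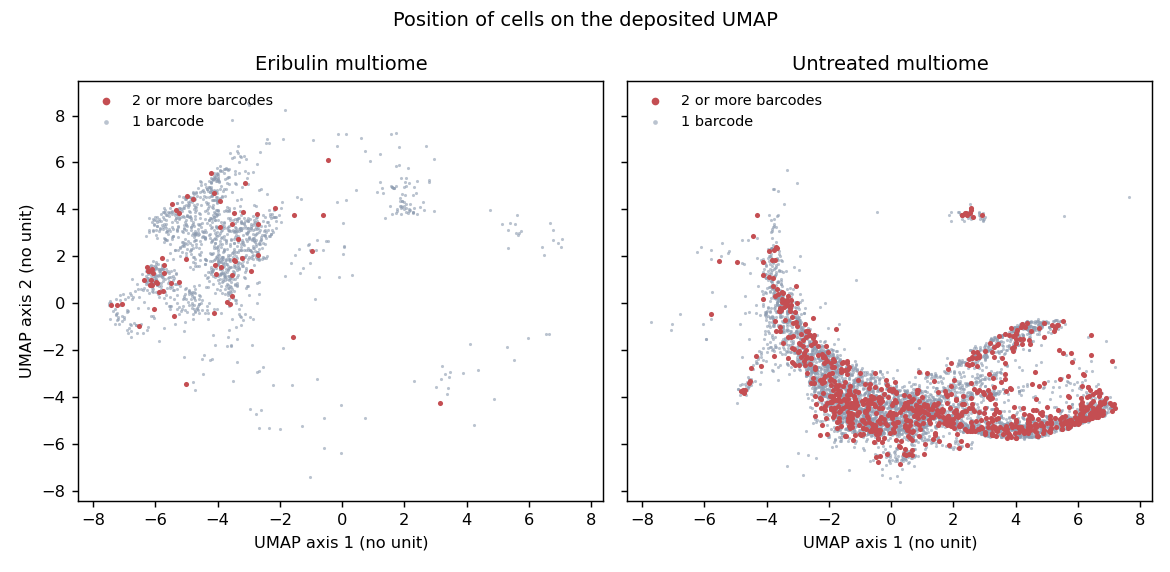
Position on the deposited UMAP (axes without unit), 1 point per cell, of cells with 2 or more barcodes (red) and 1 barcode (grey) in the eribulin (left) and untreated (right) multiome libraries. The 62 and 865 red points lie largely over the regions taken by the grey ones, although 1 untreated red point belongs to cluster 11, which has no untreated grey one.

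Of the 10x cell barcodes, 123 occurred in both multiome libraries. They included 1 eribulin and 7 untreated multi-barcode cells, and none that was a multi-barcode cell in both. Over all cells of the libraries the multi-barcode shares were 0.764% and 9.03%. At those shares a lack of overlap among so few cells carries no information. Whether a given multi-barcode cell was a droplet with more than 1 nucleus or a nucleus with more than 1 integrated tag was not tested, because its barcodes are not named in the table.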

How the data were processed

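Chromatin accessibility was measured per cell in 4 libraries, of which the 2 multiome libraries were compared. Per the series' design text, peak counts came from cellranger-arc 1.0.0 for the multiome run on mm10 and were analysed with Signac 1.1.1, with cells under 1000 or over 75000 fragments in peaks removed. The table's cut site column reaches 82683 in these libraries, and whether the limits used that column is not stated. By the same text, cells with a nucleosome signal over 10 or a TSS enrichment under 2 were removed as well. Barcode calling, doublet removal before deposit and the integration method are not given in the sources used here.

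The authors deposited whole-number counts per cell of cut sites, peaks and genes with activity, without normalization. The deposited nucleosome signal and TSS enrichment are ratios per cell, per the file headers. The UMAP axes, as deposited by the authors, are a unitless score. The cell table has 37 columns, of which 16 were empty or 0 throughout, among them the other barcode class columns.

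Single-barcode cells have 1 named barcode; cells called negative served as a second comparison, and cells called unmapped were left out. Medians, quartiles, shares with exact 95% intervals, shares in 9 depth bins, ratios to the 50 single-barcode cells nearest in depth and shares of 30 UMAP neighbours were computed with Python 3.11.15 (numpy 2.4.6, pandas 2.3.3, scipy 1.17.1), and figures were drawn with matplotlib 3.10.9. No p-value is given, since each group is 1 library. Clusters are named by number if they held at least 5% of either class of a library. No value per gene was used, so none is named. Combinations and home clusters of the barcodes were planned and could not be computed, since the table gives no barcode for these cells. The members and lists were chosen with earlier results of these data known. The interval of a median and the share of pairs were tested on simulated data.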

Additional observations from a re-analysis of the deposited data

Results flagged for a closer look

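The difference in median TSS enrichment between multi-barcode and single-barcode cells had opposite signs in the libraries, -0.0611 in the eribulin and 0.00207 in the untreated library. The counting intervals of both differences include 0, and the opposite signs did not hold under every alternative: with means the differences were -0.00645 and -0.0200, and within the cluster with most multi-barcode cells -0.0403 and -0.0988, below 0 in both libraries. The difference between them was not tested.

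Cells with more than 1 barcode were also called outside the multiome libraries, in 5 of 16724 eribulin scATAC cells and 1 of 9361 untreated ones. Few cells there had any called barcode. Of those that did, the multi-barcode cells were 5.62% (1.85 to 12.6; 5 of 89) in the eribulin and 3.33% (0.0844 to 17.2; 1 of 30) in the untreated scATAC library. The 5 eribulin cells had 2380, 2513, 3435, 7401 and 11636 cut sites, against a median of 6441 in the 84 single-barcode cells of that library, so 3 of the 5 were shallower than that median.

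Cells called unmapped, left out of the comparisons, numbered 39 in the eribulin and 56 in the untreated multiome library. Their median depth was 15789 and 16661 cut sites, which is 2.65 and 3.07 times that of single-barcode cells and above that of multi-barcode cells in both libraries. The sources used here do not say what that class holds.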

How the results depend on the processing

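Of 100 alternative values, 77 stayed within the counting interval of the reported one, 23 moved outside it, and none reversed a difference whose interval excluded 0. The share of multi-barcode cells moved with its base. In the eribulin library it was 4.27% of cells with a called barcode, 4.16% with unmapped cells added, 2.48% of barcoded cells with over 4000 to 6000 cut sites, and 1.16% of all cells at or above the library's median depth. In the untreated library these were 15.3%, 15.2%, 13.1% and 11.6%. The base with unmapped cells, the 4000 to 6000 range and the 2% limit on the depth match were chosen after seeing the data. Against negative cells the ratio of median cut sites was 3.24 in the eribulin and 1.44 in the untreated library, and that of peaks 2.97 and 1.40. In the untreated library Doublets alone gave 1.15 for cut sites and 1.13 for peaks, Multiplets alone 1.57 and 1.53, and means 1.37 for cut sites. Untreated Multiplets alone gave a nucleosome signal difference of -0.024, and cluster 2 alone a TSS enrichment difference of -0.099. The TSS enrichment difference, whose interval spans 0, took the other sign with eribulin Multiplets alone (0.166) and, in the untreated library, against negative cells (-0.0122), with means (-0.0200) and within cluster 2 (-0.099). Other differences whose intervals span 0 changed sign too. These were eribulin nucleosome signal with Multiplets alone (0.0077) and the share of eribulin cluster 10 against negative cells (1.97 points). In the untreated library they were the shares of cluster 3 with Doublets alone (-0.167), cluster 8 against negative cells (-1.16) and cluster 9 in deeper cells (0.380). Against negative cells the cluster share differences, in percentage points, were -22.2 in cluster 0 and 23.1 in cluster 12 of the eribulin library, and 11.01 in cluster 2 and -6.07 in cluster 9 of the untreated one. The cause of these shifts was not tested, apart from the change of base or cells itself. Other class columns were empty, so that alternative was not run, and neither were those on barcode combinations and home clusters. No paired analysis was possible because each group is 1 library, and no library could be left out. With 62 multi-barcode cells, shares in the eribulin library carry wide intervals.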
